A study of Mus musculus with 48 samples.

Results

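The comparison asked how the difference between a slow-biased and a fast-biased muscle of the mouse shank changed from late gestation to adulthood. Its measure was the log2 difference of soleus less gastrocnemius in adults, less the same difference at E18.5, the embryonic stage, taken for every gene with enough reads. It used 24 of the 48 libraries of the series, 6 in each of 4 groups: E18.5 gastrocnemius, E18.5 soleus, adult gastrocnemius and adult soleus. All animals were male mice of the inbred strain FVB/NJ with no transgene or treatment named in the labels, and the other 24 libraries came from thigh muscles of the same animals. The design text places the adults at postnatal day 56 and the growth protocol at 3 to 4 months, so the stage is called adult here. Each library held mRNA of a whole dissected muscle, sequenced as bulk RNA and counted per gene.

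Limb muscle fibres are classed by their myosin heavy chain. Slow fibres carry the Myh7 product, contract slowly and burn fatty acids and lactate in mitochondria, whereas fast fibres of the IIa, IIx and IIb kinds carry the products of Myh2, Myh1 and Myh4 and rely increasingly on glycolysis in that order. Fibres first form with embryonic and neonatal myosins, and nerve activity, load and thyroid hormone then shape their adult kind. In mice the soleus, a postural muscle, becomes rich in slow and IIa fibres, and the gastrocnemius, used in running and jumping, becomes mostly IIb.

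Library totals ranged from 19.2 to 31.2 M counts, with a median of 22.3 M. Levels are given in CPM (counts scaled to a common library size) after TMM scaling, which corrects library sizes for their composition, and are not divided by gene length. The scaling mattered because the 20 most abundant genes took 24.8% to 39.8% of an adult library and 11.3% to 16.3% of an E18.5 library. Animals are lettered A to F within a stage after the date tags of the libraries; E18.5 animals C, D and E share 1 date, as do adult D and E. Adult gastrocnemius of animals A and D stood apart from the other 4 in genes of slow and oxidative fibres, for example with 29.9 and 16.0 CPM of Myh7 against 758 to 1544 CPM. With adult animals B, C, E and F alone, 5208 genes were called for the change of the muscle difference, against 6411 with all 6. In whole muscle, fewer cells of a type and less RNA per cell cannot be told apart. The labels do not say whether embryos came from separate litters.

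Few genes were called between the 2 muscles before birth and many in adults. At an adjusted p under 0.05 (edgeR's quasi-likelihood test, Benjamini-Hochberg), the fit called 78 of 15650 genes between soleus and gastrocnemius at E18.5 (0.498%), 40 higher (0.256%) and 38 lower (0.243%) in soleus. In adults it called 8468 genes (54.1%), 4371 higher (27.9%) and 4097 lower (26.2%) in soleus. The change of the difference itself was called for 6411 genes (41%), of which 3146 (20.1%) moved towards soleus and 3265 (20.9%) towards gastrocnemius. Here a gene moved towards soleus when its soleus less gastrocnemius difference was more positive in adults than at E18.5, and towards gastrocnemius when it was more negative. Counts of list members given below stand against the shares of 20.1% and 20.9% over all genes tested. The change exceeded 2-fold for 1488 genes towards soleus and 996 towards gastrocnemius, and 16-fold for 77 and 68.

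The E18.5 count was the least steady of these. With the animal as a block it was 156, and with all 48 libraries in 1 fit it was 21; without animal B, D or F it was 26, 42 or 34. E18.5 soleus of animals A, B and F differed from that of C, D and E in Myh7, Myh3 and Myh8, as given below. The part of that split in the E18.5 count was not tested. For the change of the difference, scaling by total counts alone shifted the median change over all genes from 0.06 to 0.48 on the log2 scale, and 84.6% of calls were then towards soleus, against 49.1% with TMM.

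Each animal's own muscles gave the same picture. The root mean square over tested genes of the log2 difference between an animal's soleus and gastrocnemius was 0.566 ± 0.059 (SD, n = 6) at E18.5 and 1.137 ± 0.138 (SD, n = 6) in adults. The lowest adult value, 1.015, lay above the highest E18.5 value, 0.662. An exact two-sided permutation test over the animals of both stages gave p = 0.00216 for the difference of 0.571, the smallest value that 924 splits allow. For scale, the same distance between 2 animals within a muscle had a median of 0.486 for E18.5 gastrocnemius, 0.639 for E18.5 soleus, 0.757 for adult gastrocnemius and 0.597 for adult soleus, so the E18.5 value of 0.566 lay within the range of these distances and the adult value of 1.137 above it.

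**Figure D1:**
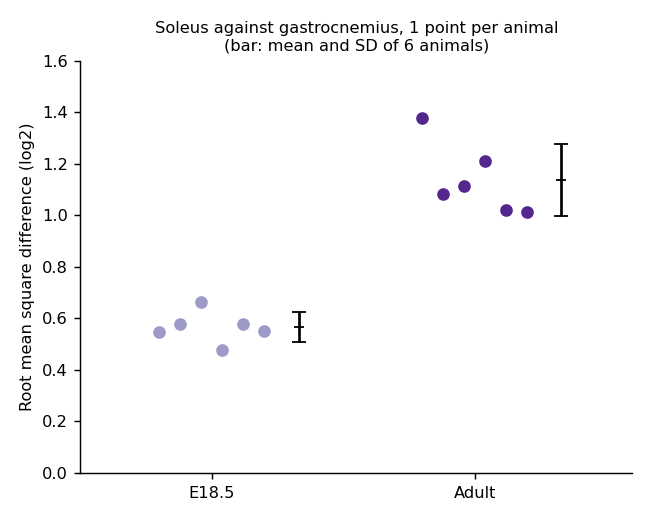
Root mean square log2 difference between soleus and gastrocnemius of each animal (vertical axis, log2 units) at the 2 stages; points are animals, the bar is the mean and the whiskers the SD of 6 animals. All adult animals, from 1.015 upward, lie above all E18.5 animals, which end at 0.662.

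The called genes were then sorted by which muscle changed between the stages and in which direction. Among the 3146 genes that moved towards soleus, 1405 (44.7%) fell in both muscles and fell more in gastrocnemius, with median log2 changes of -1.33 in soleus and -2.31 in gastrocnemius. A further 593 (18.9%) fell in gastrocnemius while the change in soleus was not called. Gain in soleus was less frequent: 503 genes (16.0%) rose in both muscles and more in soleus, 460 (14.6%) rose in soleus with no call in gastrocnemius, and 159 (5.05%) rose in soleus and fell in gastrocnemius. For 26 genes neither muscle's change was called. A change that was not called is not shown to be absent.

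The 3265 genes that moved towards gastrocnemius were mostly gains of that muscle. In 1645 of them (50.4%) both muscles rose and gastrocnemius rose more, with medians of 0.90 in soleus and 1.69 in gastrocnemius, and 620 (19%) rose in gastrocnemius alone. Loss in soleus accounted for the rest: 388 (11.9%) fell in both and more in soleus, 349 (10.7%) fell in soleus alone, and 256 (7.84%) fell in soleus and rose in gastrocnemius, while 7 had no call in either muscle. Where an age change also had to exceed 2-fold to count, 1186 of these 3265 genes and 737 of the 3146 had none in either muscle, 731 still rose in both and more in gastrocnemius, and 891 fell in both and more in gastrocnemius. These shares stand against a background in which 11976 genes (76.5%) changed with age in soleus and 12540 (80.1%) in gastrocnemius.

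In either direction gastrocnemius was the muscle with the larger age change for most genes, 2101 of 3146 (66.8%) towards soleus and 2404 of 3265 (73.6%) towards gastrocnemius. The share over both directions was 70.3%, and it ranged from 69.7% to 71% with single animals left out and was 78.9% with total-count scaling. That scaling raised the group that fell in both and more in gastrocnemius to 4362 genes and lowered the group that rose in both and more in gastrocnemius to 332. The same share was not taken over all genes tested, so whether 70.3% is particular to the called genes is not known.

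**Figure D2:**
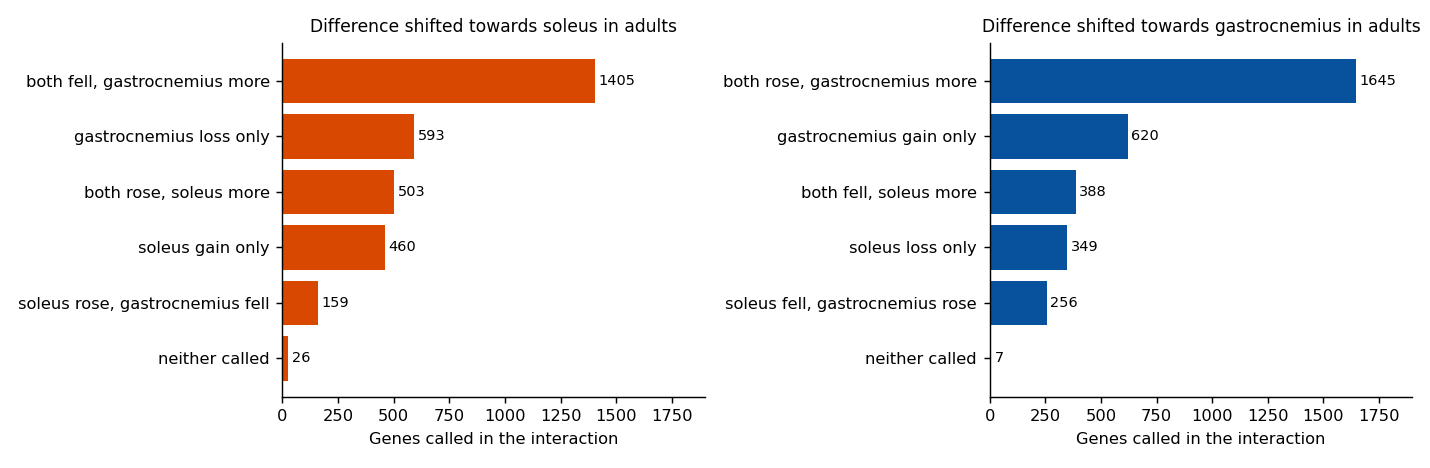
Number of genes called for the change of the muscle difference (horizontal axis) in each sorting class, with genes that moved towards soleus and towards gastrocnemius in different colours. The longest bars are genes that rose in both muscles and more in gastrocnemius (1645) and genes that fell in both and more in gastrocnemius (1405).

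**Figure D3:**
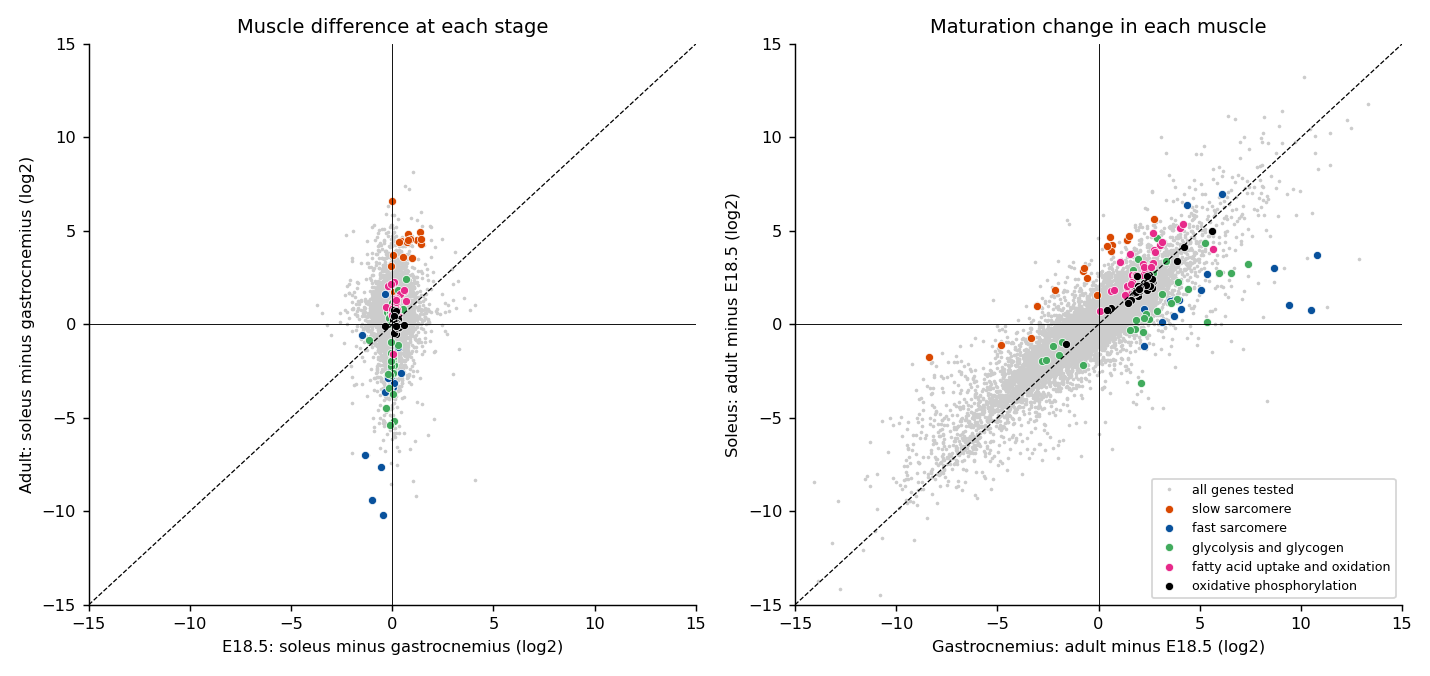
Left, the log2 difference of soleus less gastrocnemius at E18.5 (horizontal axis) and in adults (vertical axis) per gene; right, the log2 change from E18.5 to adult in gastrocnemius (horizontal) and soleus (vertical), with members of 5 gene lists coloured over all genes tested. On the left most genes form an upright cloud, narrow at E18.5 and wide in adults; on the right the slow sarcomere genes lie above the diagonal and the fast ones, apart from Myh2 and Myh1, below it.

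Genes of the slow contractile apparatus all moved towards soleus: 16 of 16 passed the test, with a median log2 change of 3.61 against 0.06 over all genes tested. They did so in 5 ways. Soleus gain alone accounted for 8 genes (Myh7, Myh6, Tnnt1, Tnnc1, Tpm3, Myoz2, Mybpc1 and Atp2a2), gain in both muscles for 3 (Myl2, Myl3 and Pln), loss in both for 3 (Myl6b, Casq2 and Sln), gastrocnemius loss alone for Myh7b, and opposite changes for Tnni1. With E18.5 animals A, B and F alone 11 of the 16 passed, and with only the animals of the shared dates 7 did, all towards soleus. The latter subset lost the calls of Tnni1 (3.97, adjusted p = 0.171), Atp2a2 (4.10, adjusted p = 0.0507) and Myh7 (4.19, adjusted p = 0.185), against 4.01, 4.11 and 3.57 with all animals.

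Myh7 encodes the slow myosin heavy chain. At E18.5 it stood at 249.3 to 572 CPM in gastrocnemius (median 501) and 466 to 2410 in soleus (median 942). Adult gastrocnemius held 16.0 to 1544 CPM (median 812) and adult soleus 15730 to 29810 (median 22455), so the adult ranges did not overlap while those of E18.5 did. The difference grew by 3.57 ± 0.95 (log2, SE, adjusted p = 0.00457). The E18.5 soleus libraries split by date, with 1012, 1499 and 2410 CPM in animals F, A and B and 466, 839 and 871 in C, D and E. With A, B and F alone the Myh7 change was 3.18 (adjusted p = 0.0912), and with C, D and E alone 4.20 (adjusted p = 0.0292).

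Atp2a2 encodes the slow-fibre calcium pump SERCA2. It was level at E18.5, 433 to 567 CPM in gastrocnemius (median 547) and 445 to 776 in soleus (median 663). In adults it stood at 124 to 1641 CPM in gastrocnemius (median 848) and 14390 to 19540 in soleus (median 16410), again without overlap. The rise in soleus, 4.68 (log2), was called and the 0.58 in gastrocnemius was not; the difference grew by 4.11 ± 0.55 (adjusted p = 2.52e-06).

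Tnni1, slow troponin I, changed in opposite directions. It rose in soleus from 343 to 653 CPM (median 537) to 1271 to 2650 (median 1852), and fell in gastrocnemius from 295 to 470 (median 387) to 1.67 to 180 (median 104). The 2 adult ranges lay far apart, and the difference grew by 4.01 ± 0.84 (adjusted p = 0.000694).

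Sarcolipin and cardiac calsequestrin reached a slow-muscle pattern by loss. Sln, whose product restrains the calcium pump, was at 72.3 to 169 CPM in E18.5 gastrocnemius (median 148) and 101 to 189 in E18.5 soleus (median 131). It fell in both, to 33.4 to 52.5 CPM in adult soleus (median 40.8) and to 0 to 0.935 in adult gastrocnemius (median 0.292), a change of the difference of 6.63 ± 0.44 (adjusted p = 4.85e-11) and the largest towards soleus among genes named by the selection rule. Casq2, which stores calcium in the reticulum of slow and cardiac muscle, fell from a median of 816 to 421 CPM in soleus and from 965 to 36.5 CPM in gastrocnemius (ranges 376 to 571 and 10.3 to 57.2 in adults). Its difference grew by 3.69 ± 0.47 (adjusted p = 1.81e-06), with overlapping ranges at E18.5 and separate ones in adults.

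**Figure D4:**
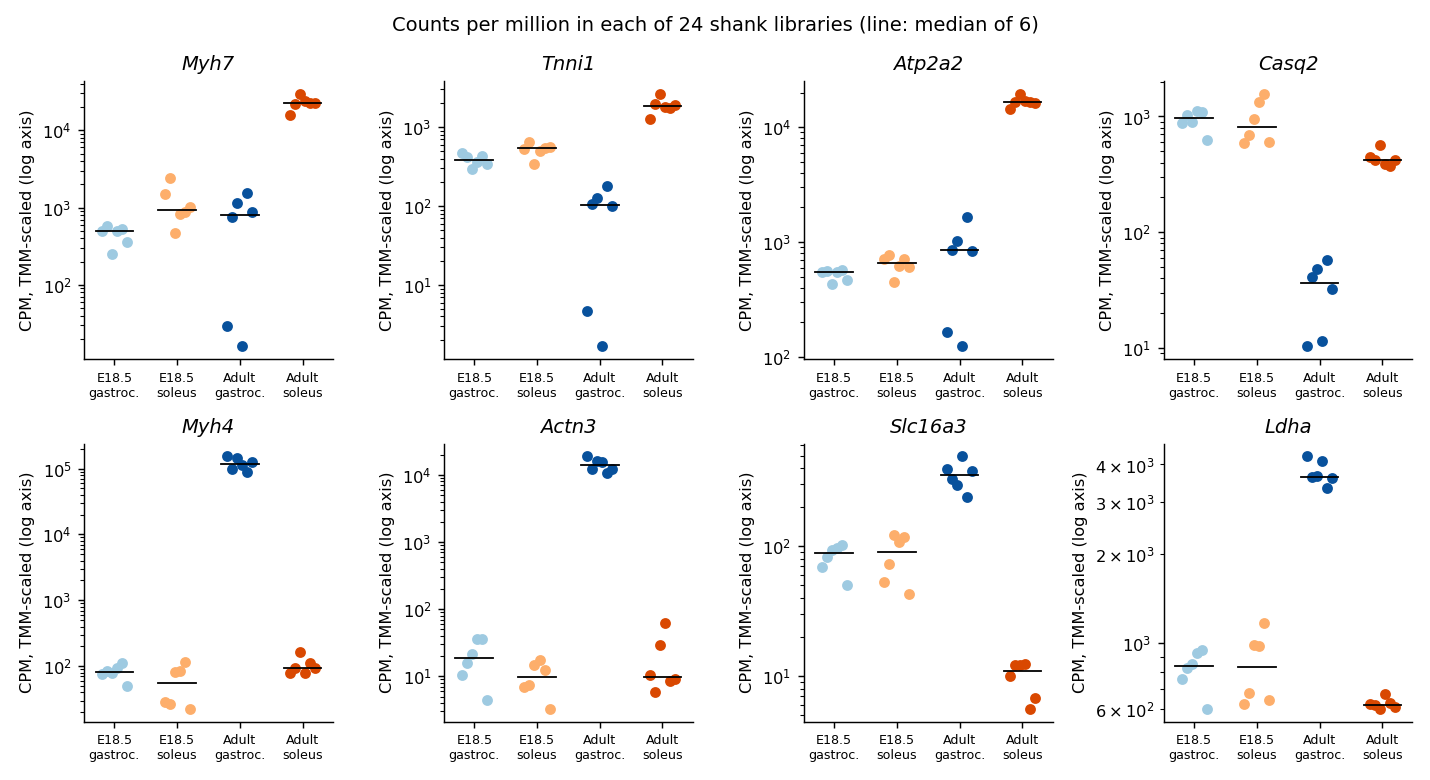
Level of 8 genes in each library (vertical axis, TMM-scaled CPM, log scale) in the 4 groups; points are libraries and the line is the group median. Myh7, Tnni1, Atp2a2 and Casq2 are high in adult soleus and low in adult gastrocnemius, Myh4, Actn3, Slc16a3 and Ldha the reverse, and the E18.5 groups of all 8 overlap.

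Genes of the fast contractile apparatus moved towards gastrocnemius in 14 of 17 cases (median -3.003), and Myh2 moved towards soleus. Gain in gastrocnemius marked the list: 17 of 17 rose there with age and 12 of 17 rose in soleus, where 38.1% and 36.8% of all tested genes rose, and 10 of the 14 rose in both and more in gastrocnemius. Actn3, Myl1 and Myoz1 rose in gastrocnemius alone, and Mylpf rose there and fell in soleus.

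Myh4, the IIb myosin heavy chain gene (chromosome 11, 67237812 to 67260447, build GRCm38), showed the largest move towards gastrocnemius of any list member. At E18.5 it was at 49.8 to 113 CPM in gastrocnemius (median 81.8) and 22.3 to 116 in soleus (median 55.1). Adult gastrocnemius held 89350 to 153100 CPM (median 118750) against 77.8 to 165 in adult soleus (median 93.7). The age change was 10.50 in gastrocnemius and 0.79 in soleus, and the difference moved by -9.72 ± 0.54 (adjusted p = 3e-13).

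Actn3, the fast-fibre alpha-actinin of the Z-disc, was as lopsided. It stood at 4.51 to 36.6 CPM in E18.5 gastrocnemius (median 18.8) and 3.26 to 17.3 in E18.5 soleus (median 9.92), then at 10650 to 18860 in adult gastrocnemius (median 14025) and 5.86 to 62.7 in adult soleus (median 9.76). Pvalb, which encodes the calcium buffer parvalbumin, rose in both muscles, from medians of 6.36 and 2.61 CPM to 10995 in gastrocnemius and 49.5 in soleus. Their differences moved by -8.40 ± 0.85 and -7.07 ± 1.06.

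Mylpf, the fast regulatory light chain, was already abundant before birth, at 1895 to 3612 CPM in gastrocnemius (median 2896) and 1872 to 4723 in soleus (median 2680). It then rose to 11110 to 16610 CPM in adult gastrocnemius (median 13695) and fell to 1093 to 1602 in adult soleus (median 1409). The difference moved by -3.42 ± 0.29 (adjusted p = 1.15e-09), and only the adult ranges were separate.

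The 2 other fast myosins behaved differently. Myh2, the IIa gene, rose in both muscles and more in soleus, from a median of 137 to 12680 CPM there and from 197 to 4404 in gastrocnemius, and its difference moved towards soleus by 1.98 ± 0.64 (adjusted p = 0.0159). With E18.5 animals C, D and E alone the Myh2 move was 1.56 (adjusted p = 0.116). For Myh1, the IIx gene, the move was 0.89 ± 0.63 and was not called (adjusted p = 0.27), with adult ranges of 1144 to 9238 CPM in gastrocnemius and 954 to 4605 in soleus that overlapped. Reads of these close paralogs can be shared, and the strand setting and gene models behind the counts were not stated, so counts of single myosin genes are uncertain to that extent.

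Promoter sequences are shown for 4 sarcomere genes, each from a different sorting class, because these genes moved with others of their list: Myh4 (rose in both, more in gastrocnemius), Mylpf (rose in gastrocnemius, fell in soleus), Tnnc1, slow and cardiac troponin C (rose in soleus alone), and Casq2 (fell in both, more in gastrocnemius). Each run is the 200 bases before the start given in the RefSeq promoter table, 5′ to 3′ on the plus strand of GRCm38.p6. For Myh4, Tnnc1 and Casq2 that is the first base of the gene's listed span, and for Mylpf it lies inside the span (chromosome 7, 127208848 to 127214288). Capitals mark matches on either strand to an E-box (CANNTG), an MCAT element (CATTCC or GGAATG) or the MEF2 site. They also mark TATAAA on the listed strand only, which can overlap the MEF2 site.
Myh4 (chr11:67237612-67237811): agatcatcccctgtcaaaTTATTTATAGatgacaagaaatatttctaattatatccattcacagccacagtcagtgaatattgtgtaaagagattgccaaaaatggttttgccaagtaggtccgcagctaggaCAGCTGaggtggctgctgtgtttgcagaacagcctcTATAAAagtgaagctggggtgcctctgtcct
Mylpf (chr7:127211408-127211607): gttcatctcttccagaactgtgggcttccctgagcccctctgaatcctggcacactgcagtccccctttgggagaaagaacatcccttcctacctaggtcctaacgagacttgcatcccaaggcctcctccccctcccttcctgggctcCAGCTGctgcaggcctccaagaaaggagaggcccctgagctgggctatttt
Tnnc1 (chr14:31208112-31208311): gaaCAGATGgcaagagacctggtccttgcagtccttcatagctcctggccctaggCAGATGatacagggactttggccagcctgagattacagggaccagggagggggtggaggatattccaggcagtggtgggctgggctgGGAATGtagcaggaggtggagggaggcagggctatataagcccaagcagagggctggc
Casq2 (chr3:102086215-102086414): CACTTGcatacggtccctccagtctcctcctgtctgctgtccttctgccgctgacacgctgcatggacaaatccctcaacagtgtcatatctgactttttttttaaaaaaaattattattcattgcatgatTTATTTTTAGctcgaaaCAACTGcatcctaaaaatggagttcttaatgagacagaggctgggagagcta

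In these windows Myh4 held an E-box 67 bases, a MEF2 site 182 bases and a TATAAA 31 bases before the start, Mylpf an E-box at 51, Tnnc1 E-boxes at 197 and 145 and an MCAT element at 58, and Casq2 E-boxes at 200 and 52 and a MEF2 site at 69. Of all 32851 promoter windows of that length, 58.2% held an E-box, 10.1% an MCAT element, 2.29% a MEF2 site and 6.27% a TATAAA, which was sought on the listed strand only throughout. Among the slow sarcomere genes 14 had a window, and 14 of these held an E-box, 2 an MCAT element, 2 a MEF2 site and 1 a TATAAA. Among the fast ones 12 had a window, with 8, 4, 2 and 2. These are letter matches, and nothing measured here shows that a factor binds them.

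Shares of the myosin transcripts give the same libraries on a scale that needs no library scaling. At E18.5 the embryonic gene Myh3 and the neonatal gene Myh8 together held nearly all of the summed counts of 6 myosin heavy chain genes: Myh3 had 47.3% ± 5.90 in gastrocnemius and 57.3% ± 12.3 in soleus, and Myh8 had 47.7% ± 5.90 and 33.3% ± 16.3 (SD, n = 6). Adult gastrocnemius was 91.9% ± 6.02 Myh4, while adult soleus was 58.2% ± 6.24 Myh7, 32.7% ± 6.87 Myh2 and 8.81% ± 3.46 Myh1, with 0.266% ± 0.0640 Myh4. Counts were not divided by transcript length. The E18.5 soleus means of Myh3 and Myh8 lay between separate sets of libraries. Myh8 had 17.29% to 19.42% in soleus of E18.5 animals A, B and F and 45.06% to 52.31% in C, D and E. Myh3 had 67.01% to 70.31% and 42.75% to 48.37%. Soleus of C, D and E lay within the E18.5 gastrocnemius ranges of both genes, and that of A, B and F outside them.

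Within animals, the soleus less gastrocnemius difference in Myh7 share was 5.19 points at E18.5, positive in 6 of 6 animals, and 57.6 points in adults. The gap grew by 52.4 points for Myh7 and 29.7 for Myh2, and moved by -91.5 points for Myh4, -9.99 for Myh3 and 14.5 for Myh8. For the last pair the gap closed, from 10.05 to 0.0537 points for Myh3 and from -14.45 to 0.0261 for Myh8, and the Myh3 share moved with the opposite sign to its log2 level, which went towards soleus by 2.64. Each of these gave p = 0.00216 in an exact two-sided permutation test over animals (0.00259 adjusted over the 6 genes), the smallest value possible. For Myh1 the 4.94 points gave an exact permutation p of 0.123, and 0.00216 with 6.9 points when adult animal E was left out. The E18.5 soleus share of Myh7 was 9.80% to 14.9% in animals A, B and F and 3.03% to 4.66% in C, D and E.

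**Figure D5:**
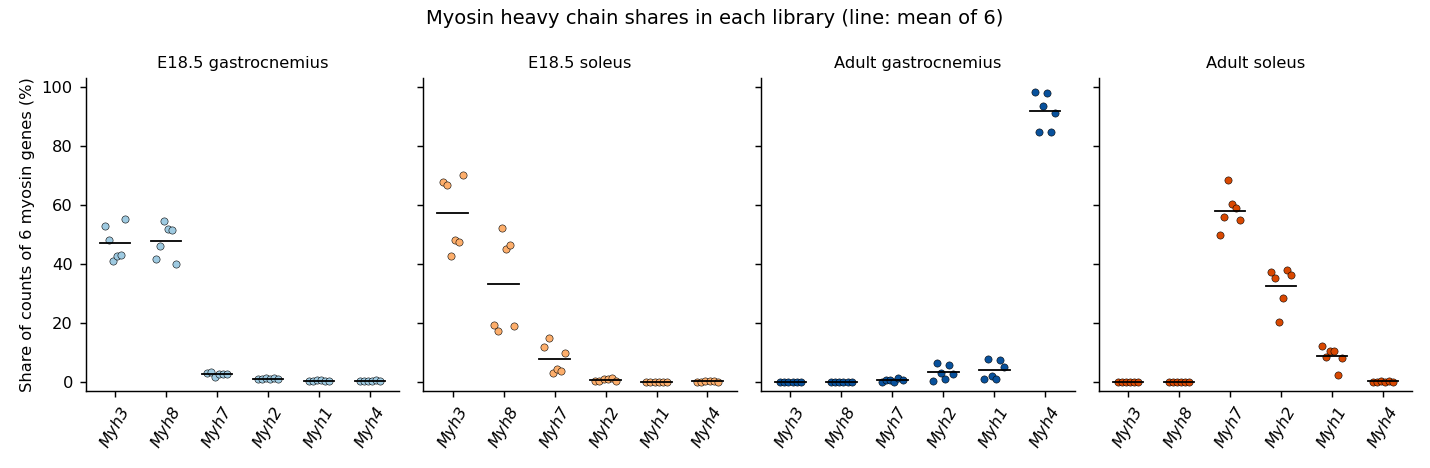
Share of each of 6 myosin heavy chain genes in their summed counts (vertical axis, percent) by group; points are libraries and the line is the mean of 6. Myh3 and Myh8 hold the E18.5 muscles, Myh4 holds adult gastrocnemius at a mean of 91.9%, and Myh7 and Myh2 hold adult soleus at 58.2% and 32.7%.

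Of 11 genes listed as developmental sarcomere, 7 moved towards soleus and 1 towards gastrocnemius (median 1.42), against 20.1% and 20.9% of all genes tested. The list is mixed: it also held Acta2 and Myl9, which are smooth muscle genes as well, and Ankrd1 and Myom3. With age 10 of the 11 fell in gastrocnemius, where 42% of all tested genes fell. In soleus 8 fell and 2 rose, where 39.7% and 36.8% of all tested genes did so. In 5 of the 7 both muscles fell and gastrocnemius fell more. Myh3 fell from a median of 8664 to 16.0 CPM in soleus and from 7728 to 2.68 CPM in gastrocnemius; adult ranges of 10.2 to 43.1 and 0.836 to 6.65 CPM were separate, and the difference moved by 2.64 ± 0.50 (adjusted p = 0.00016). In the fit of all 48 libraries, doubted thigh library included, 3 of the 11 were called towards soleus, and neither Myh3 (adjusted p = 0.152) nor Actc1 (adjusted p = 0.0597) was. Tnnt2, the cardiac and embryonic troponin T, moved by 2.35 ± 0.27 in the same way. Myom3, an M-band protein of slow and intermediate fibres, rose in soleus by 1.14 and fell in gastrocnemius by 1.84, so that its difference moved by 2.98 ± 0.51.

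Actc1, cardiac alpha-actin, was the exception. It fell from 3312 to 5596 CPM (median 5011) to 57.9 to 298.5 (median 131) in gastrocnemius and from 3296 to 7490 (median 4545) to 18.2 to 31.2 (median 28.6) in soleus. Adult soleus was thus the lower muscle in every library, and the difference moved by -2.55 ± 0.36 (adjusted p = 4.78e-06). Actins share long stretches of sequence, and the same uncertainty of counting holds for them.

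Among 20 genes of the Z-disc and the stretch response, 11 moved towards soleus and 2 towards gastrocnemius (median 1.01). Ankrd2, a stretch-responsive ankyrin repeat protein, went from medians of 33.02 CPM in gastrocnemius and 51.2 in soleus to 63.4 and 582, with adult ranges of 8.31 to 90.9 and 478 to 900.5, a move of 2.92 ± 0.56. Csrp3 (2.46 ± 0.48), a muscle LIM protein, fell in gastrocnemius alone, and Pdlim1 (2.71 ± 0.36) and Actn2 (2.07 ± 0.39), another alpha-actinin, rose in soleus alone. Xirp2, an actin-binding repeat protein, crossed over: it was higher in soleus at E18.5 by 1.40, with medians of 75.2 against 30.0 CPM, and higher in gastrocnemius in adults, with medians of 7534 against 3878 CPM. The small heat shock protein genes were split, with Hspb7 (2.15 ± 0.46), Cryab, Hspb6 and Hspb1 towards soleus and Hspb8 (-1.14 ± 0.21) towards gastrocnemius.

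The machinery of excitation and calcium release moved towards gastrocnemius in 17 of 21 genes tested. These changes were smaller (median -0.87) than those of the sarcomere, and 14 of the 17 rose in both muscles. With total-count scaling 11 of 21 were called towards gastrocnemius. Ryr1, the calcium release channel, moved by -0.81 ± 0.21, and Jph2, which joins the membranes of the triad, by -1.91 ± 0.20. Camk2a, a calcium-dependent kinase, rose in gastrocnemius from 173 to 224 CPM (median 212) to 872 to 1282 (median 1043) and fell in soleus from 141 to 282 (median 188) to 97.5 to 146 (median 117). Its move of -3.09 ± 0.21 (adjusted p = 2.43e-11) and that of Cacng1, a calcium channel subunit (-2.66 ± 0.25), came from opposite changes in the 2 muscles.

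Transcription factors and signalling genes linked to fibre type did not move as a block: of 40, 9 moved towards soleus and 10 towards gastrocnemius. These counts were not far from the 20.1% and 20.9% of all genes tested. The 21 others, among them Mef2c, Nfatc2, Hdac4, Hdac5, Ppard and Esrra, were not called; of those named, Mef2c, Hdac4 and Hdac5 were called towards soleus with total-count scaling. Six2, a homeobox factor, rose in gastrocnemius from 8.60 to 14.95 CPM (median 11.6) to 29.7 to 84.6 (median 67.6) and fell in soleus from 1.438 to 17.7 (median 7.78) to 0.286 to 0.801 (median 0.582). Its difference moved by -6.40 ± 0.69 (adjusted p = 1.78e-07), the largest of the list. Eya4, whose product acts with such factors, moved by -2.93 ± 0.25, and Mafa (-3.75 ± 0.54) and Maf (-2.91 ± 0.18), large Maf factors, moved the same way.

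Sox6 and Tbx15, known as regulators of the fast fibre program, moved towards gastrocnemius by gain there. Sox6 rose from 48.3 to 64.5 CPM (median 54.4) to 301 to 406 (median 354) in gastrocnemius and from 19.4 to 56.6 (median 36.3) to 65.5 to 93.9 (median 81.0) in soleus, a move of -1.57 ± 0.28 (adjusted p = 8.35e-05). Tbx15 was level at E18.5, with medians of 143 and 144 CPM, and in adults stood at 359 to 512 CPM in gastrocnemius and 137 to 193 in soleus (-1.59 ± 0.15, adjusted p = 6.2e-09).

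Prox1, a homeobox factor of slow fibres, did the reverse. It rose in soleus from 11.9 to 29.9 CPM (median 16.3) to 36.1 to 70.6 (median 44.3) and fell in gastrocnemius from 8.95 to 16.1 (median 11.98) to 2.13 to 5.29 (median 4.19). The difference moved by 2.97 ± 0.34 (adjusted p = 3.03e-07), and the adult ranges were separate. Vgll2, a cofactor of TEAD factors, rose in soleus alone (2.08 ± 0.39).

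Ppargc1a, which encodes the coactivator PGC-1 alpha, was not called. Its move of 1.82 ± 0.77 (adjusted p = 0.0638) leaned on soleus of adult animal A, at 1749 CPM against 83.1 to 422 in the other 5, and adult gastrocnemius at 87.6 to 128 CPM overlapped with soleus. Without adult animal A the Ppargc1a move was 0.61 (adjusted p = 0.295), whereas DESeq2 called it with all animals (adjusted p = 0.0344). Soleus of that animal also held 745 CPM of summed Schwann cell markers, against at most 195 CPM in the other 5, and its part in the Ppargc1a level was not tested.

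Glycolysis and glycogen genes moved mainly towards gastrocnemius, 20 of 33 against 7 towards soleus (median -1.61). Of the 20, 13 rose in both muscles and more in gastrocnemius. Slc16a3, the lactate exporter MCT4, rose in gastrocnemius from 50.6 to 102 CPM (median 88.2) to 240 to 492.5 (median 353) and fell in soleus from 42.9 to 123 (median 90.2) to 5.58 to 12.4 (median 11.1), a move of -5.24 ± 0.38 (adjusted p = 2.34e-10). Pfkfb3, which sets the level of a glycolytic activator, rose in gastrocnemius alone, from a median of 25.9 to 915 CPM, with 25.3 in adult soleus (-5.25 ± 0.49). Ldha, the lactate dehydrogenase subunit of glycolytic tissue, went from medians of 836 and 827 CPM to 3639 in gastrocnemius and 620 in soleus (-2.64 ± 0.20). Gpd1 (-4.19 ± 0.42), Phkg1 (-3.78 ± 0.39) and Phka1 (-3.21 ± 0.16), the latter pair subunits of phosphorylase kinase, moved likewise.

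Of the 7 that moved towards soleus, 3 rose in both muscles and 4 fell in both. Ldhb, the lactate dehydrogenase subunit of oxidative tissue, rose in both muscles to 821 to 1043 CPM (median 966) in adult soleus and 26.1 to 349 (median 198) in adult gastrocnemius (1.74 ± 0.55, adjusted p = 0.0147). Its E18.5 ranges, 18.7 to 28.5 CPM in gastrocnemius and 29.8 to 55.6 in soleus, were separate as well. The call was lost with E18.5 animals A, B and F alone (adjusted p = 0.157) and with C, D and E alone (adjusted p = 0.0751). Slc16a1, the transporter MCT1, moved by 1.54 ± 0.19 and Gbe1, the glycogen branching enzyme, by 1.18 ± 0.28. Hk1, Pfkl, Pgam1 and Pgm2 fell in both muscles and more in gastrocnemius.

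Fatty acid genes moved towards soleus in 19 of 28 cases (median 0.85), and 18 of these rose in both muscles. Cd36, a fatty acid transporter, rose from 113 to 161 CPM (median 143) to 155 to 460 (median 312) in gastrocnemius and from 84.6 to 163 (median 123) to 1083 to 1634 (median 1150) in soleus, a move of 2.29 ± 0.32 (adjusted p = 3.51e-06). Lpl, lipoprotein lipase, moved by 2.19 ± 0.46, and Acot2, a mitochondrial thioesterase, by 2.22 ± 0.32. Hadha, Hadhb and Acadm, enzymes of beta oxidation, moved by 0.97 to 1.23. Ucp3, a mitochondrial carrier, went towards gastrocnemius (-1.59 ± 0.52), a call lost without adult animal A and without E18.5 animal C. With E18.5 animals A, B and F alone 13 of 28 were called towards soleus, and with the animals of the shared dates 5.

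The respiratory chain showed no such move. Of 40 nuclear genes of oxidative phosphorylation, 38 rose with age in soleus and 37 in gastrocnemius (36.8% and 38.1% of all genes tested), and 2 were called towards soleus and 5 towards gastrocnemius (median -0.14), and with total-count scaling 11 and 0 (median 0.29). Cox6a1 moved by 0.53 ± 0.14 and Cox6a2, the muscle isoform of that subunit, by -0.49 ± 0.18, a call lost when any single adult animal was left out. Of 19 tricarboxylic acid cycle genes, 2 were called towards soleus and 3 towards gastrocnemius, or 2 and 6 with the animal as a block, and 8 and 1 with total-count scaling. Idh2, the mitochondrial NADP-linked isocitrate dehydrogenase, rose in soleus alone, to 1742 to 2406 CPM (median 2092) against 121 to 762 (median 464) in adult gastrocnemius (2.22 ± 0.43, adjusted p = 0.000234; 0.104 with the animals of the shared dates). Idh3a, a subunit of the NAD-linked enzyme, went the other way (-1.28 ± 0.23).

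At the neuromuscular junction the subunits of the acetylcholine receptor separated. Chrng, the fetal gamma subunit, fell in both muscles, from 127 to 156 CPM (median 141) to 0.0749 to 0.614 (median 0.380) in gastrocnemius and from 102 to 181 (median 119) to 1.82 to 3.61 (median 3.18) in soleus. Chrne, the adult epsilon subunit that replaces it, rose from medians of 0.268 and 0.402 CPM to 15.8 to 27.6 (median 21.7) in gastrocnemius and 4.77 to 9.09 (median 6.93) in soleus. The gamma difference moved by 3.29 ± 0.34 (adjusted p = 2.78e-08) and the epsilon difference by -2.35 ± 0.51 (adjusted p = 0.000703), so adult soleus was the higher muscle for the fetal subunit and the lower for the adult one.

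Over the 15 junction genes 7 moved towards soleus and 4 towards gastrocnemius. Chrnd (2.62 ± 0.36), Chrna1 (1.88 ± 0.22), Ncam1 (2.04 ± 0.27), an adhesion molecule of immature and denervated fibres, and Colq (1.86 ± 0.32), the collagen tail of acetylcholinesterase, were among the first. Ache, the esterase itself (-1.66 ± 0.29), fell in soleus alone.

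Of 16 satellite cell and myogenic genes 9 moved towards soleus and 2 towards gastrocnemius. Pax7 (0.98 ± 0.25), Myf5 (1.31 ± 0.28) and Myog (1.17 ± 0.28) fell in both muscles and less in soleus. Myod1, a myogenic regulator that in adults is higher in fast muscle, fell from 63.0 to 105 CPM (median 83.7) to 35.5 to 66.0 (median 41.6) in gastrocnemius and from 61.5 to 99.2 (median 72.7) to 5.16 to 11.8 (median 7.41) in soleus. Its difference moved by -2.48 ± 0.26, and the other gene towards gastrocnemius was Myf6 (-1.18 ± 0.21).

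Of 21 growth control genes 5 moved towards soleus and 6 towards gastrocnemius, not far from the 20.1% and 20.9% of all genes tested. Mstn encodes myostatin, an inhibitor of muscle growth (chromosome 1, 53061640 to 53068079, GRCm38). It rose in gastrocnemius from 51.0 to 76.3 CPM (median 65.4) to 138 to 283 (median 203) and fell in soleus from 0.685 to 52.9 (median 27.4) to 0.166 to 2.57 (median 1.56). The difference moved by -5.81 ± 0.81 (adjusted p = 6.92e-06). The E18.5 soleus libraries were uneven, with the lowest value in animal B and 40.6 to 52.9 CPM in animals C, D and E; with C, D and E alone the Mstn move was -6.53 and with A, B and F alone -4.28, both called. Foxo4 (-0.94 ± 0.13) and the ubiquitin ligase adaptor Fbxo40 (-1.50 ± 0.26) also moved towards gastrocnemius.

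All 14 imprinted growth genes fell with age in gastrocnemius and 13 of them in soleus, where 42% and 39.7% of all tested genes fell. The change of the difference was called for 7 of the 14, against 41% of all genes tested. H19, an imprinted long noncoding RNA, fell from 8598 to 12990 CPM (median 11020) to 204 to 531 (median 426) in gastrocnemius and from 8908 to 14260 (median 11645) to 1571 to 2423 (median 1772) in soleus, a move of 2.13 ± 0.26 (adjusted p = 4.76e-07). Grb10 (1.66 ± 0.17), an adaptor of insulin signalling, Plagl1 and Igf2 (0.81 ± 0.16) were also retained more in soleus, though Plagl1 and Igf2 were not called in the fit of all 48 libraries. Dlk1 held 3 counts over the 6 adult soleus libraries and 37 over the adult gastrocnemius ones, so no fold is given.

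The cell cycle list fell in both muscles, 22 of 22 in each, and 4 genes were called towards gastrocnemius and 1 towards soleus (4 and 4 with the animal as a block). Aurka, a mitotic kinase, moved by -2.96 ± 0.20 and Mcm2, part of the replicative helicase, by -1.55 ± 0.21, both by a larger fall in soleus. Among 15 clock genes 2 moved each way, Npas2 and Per3 towards soleus and Tef and Cry1 towards gastrocnemius; the calls of Per3 and Cry1 were each lost when any of several single animals was left out, and with E18.5 animals A, B and F alone none of the 15 was called. Of 13 immediate early genes, which respond to handling as well as to activity, 2 moved towards soleus and 1 towards gastrocnemius, and 1 and 1 with the block.

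Limb patterning genes keep a record of position along the limb. Of 29 tested, 8 moved towards gastrocnemius and 5 towards soleus (8 and 8 with the animal as a block), not far from the 20.9% and 20.1% of all genes tested. Of the 8 in the main fit, 7 were Hox genes, which make up much of the list. Hoxa9, Hoxc8, Hoxc9, Hoxc11, Hoxd11 and Hoxd13 were tested and not called. Hoxd10 rose in gastrocnemius from 4.25 to 8.01 CPM (median 5.01) to 8.30 to 14.3 (median 12.2) and fell in soleus from 3.47 to 11.6 (median 7.26) to 0.343 to 2.55 (median 0.966), a move of -3.70 ± 0.49 (adjusted p = 1.64e-06). Hoxc10 rose in both muscles, from medians of 33.8 and 30.6 CPM to 185 in gastrocnemius and 81.9 in soleus (-1.05 ± 0.10, adjusted p = 7.06e-09). Hoxd9 (-2.47 ± 0.22) and Hoxd8 (-1.53 ± 0.19) moved by a gain in gastrocnemius, alone for Hoxd9 and above a smaller one in soleus for Hoxd8, and Hoxa11 (-2.56 ± 0.45) by loss in soleus alone.

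Among those that went towards soleus were Sim1 (3.80 ± 1.02), Tbx3 (1.84 ± 0.33), Meis1 (1.93 ± 0.46) and Meis2. Pitx1, a hindlimb identity gene, was higher in soleus by 1.02 at E18.5, where it was called, and by 0.99 in adults, where it was not. Without adult animals A and D, the Pitx1 change of the difference turned from -0.04 to 1.76 (adjusted p = 0.00629). Zic1 was higher in soleus by 3.09 at E18.5 and 3.87 in adults, at 0.694 to 8.72 CPM against 0 to 1.04 before birth, and its difference was not called as changed.

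Several of the largest moves lay outside these lists. Mss51, a mitochondrial factor of glycolytic muscle, rose in gastrocnemius from 9.11 to 14.6 CPM (median 10.8) to 554 to 2306 (median 1572) and fell in soleus from 7.29 to 12.4 (median 10.95) to 2.15 to 6.46 (median 4.33), a move of -8.46 ± 0.42 (adjusted p = 3e-13). Casr, the calcium-sensing receptor, had differences of 2.04 before birth, higher in soleus, and -5.04 in adults, at 7.48 to 17.6 CPM in adult gastrocnemius and 0 to 0.611 in adult soleus (-7.08 ± 0.66). Cdh4, a cadherin, moved by -7.12 ± 0.39, from medians of 17.6 and 24.4 CPM at E18.5 to 96.8 in gastrocnemius and 1.18 in soleus. Cntnap2 (-7.74 ± 1.04), a neural adhesion protein, and Kcnab1 (-6.00 ± 0.50), a potassium channel subunit, rose in gastrocnemius alone.

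Towards soleus, Scn2a, a sodium channel subunit, moved by 4.59 ± 0.40, rising to 36.3 CPM on average in adult soleus and falling to 1.437 in adult gastrocnemius. Fhl2, a LIM domain protein abundant in heart, moved by 4.26 ± 0.43, and Adamts8, a secreted protease, by 4.20 ± 0.45, both by a rise in soleus and a fall in gastrocnemius. Sgo2a, which protects chromosome cohesion, averaged 17.2 CPM in adult soleus against 21.5 at E18.5 and fell to 0.724 CPM in gastrocnemius (4.61 ± 0.25). Cnr1, a cannabinoid receptor, fell in gastrocnemius alone (3.81 ± 0.74). Dcx, Myo16 and Gpr37 had no count in the 6 adult gastrocnemius libraries and 19, 20 and 29 counts over the adult soleus ones, and no fold is given for them.

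Seen from the stages, 6133 of the 6411 moves (95.7%) belonged to genes called between the muscles in adults and not at E18.5. Only 78 genes were called at E18.5, so this share was bound to be high. The 78 genes called at E18.5 had mixed fates. They were picked by their E18.5 difference, which also enters the change with a minus sign. That choice favours differences that shrink or turn over those that widen. For 20 the adult difference had the same sign with no change called: Cpe, carboxypeptidase E, differed by -0.81 at each stage, Gstm2, a glutathione transferase, by -1.23 and -1.39, and the BMP antagonists Nbl1 and Chrd by 0.87 and 0.56 at E18.5 and 0.81 and 0.55 in adults. For 25 the difference was called as changed and was not called in adults, among them Meis2, Alx4 and Scn4b. For 5, Tmem232, Aig1, Tdrp, Gpr37 and Lamb3, it widened, for 2, Bmper and Itgbl1, it narrowed, and for 9 neither the adult difference nor the change was called.

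In 17 of the 78 genes the sign of the difference turned over, with calls at both stages. Padi2, a peptidylarginine deiminase, went from 1.03 to -2.51, and Xirp2 and Casr, described above, turned in the same direction. Vwf, von Willebrand factor of endothelial cells, went from -1.35 to 0.67, Grik3, a glutamate receptor subunit, from -1.35 to 1.37, and Nrcam, an adhesion molecule, from -0.89 to 1.01.

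Some lists of markers of cells other than muscle fibres moved towards soleus for more members than the 20.1% of all genes that did so, and others did not. Endothelial markers moved towards soleus for 9 of 13 (median 0.65), leukocyte markers for 9 of 12 (median 0.86), pericyte and smooth muscle markers for 8 of 12 with 1 towards gastrocnemius, and fibroblast markers for 4 of 11. Nearer to the share over all genes or below it, Schwann cell markers were called for 3 of 10 (1 with the animal as a block), adipocyte markers for 2 of 9, cartilage and bone markers for 1 of 6, which was Sox9 (2 with the block), and tendon and erythroid markers for 0 of 11 and 0 of 5. Muscle spindle genes were called for 3 of 7, of which Myh6 and Myh7b also stand in the slow list. Without adult animals A and D 3 tendon markers were called. With E18.5 animals A, B and F alone the endothelial count was 2, the pericyte and leukocyte counts 3 each, and the fibroblast count 1.

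The summed endothelial markers stood at 674 to 968 CPM in adult gastrocnemius (median 839.5) and 1017 to 1191 in adult soleus (median 1163), with overlapping ranges of 664 to 1037 and 626 to 961 at E18.5. Pericyte and smooth muscle markers ran the other way in sum, at 6121 to 6912 CPM in adult gastrocnemius and 4747 to 5821 in adult soleus, with overlapping ranges of 1465 to 2203 and 1411 to 2456 at E18.5. That sum includes Des, which also stands in the satellite cell and myogenic list. Des was lower in soleus in every adult animal (log2 difference -0.54 to -0.126), while 8 of the 12 markers moved towards soleus. The part of Des in the sum was not tested. Summed leukocyte markers were 111 to 255 CPM in adult gastrocnemius and 240 to 379 in adult soleus, fibroblast markers 1429 to 3278 and 2830 to 3710, and Schwann cell markers 41.4 to 139 and 164 to 745. The part of these marker levels in the moves of other genes was not tested. No marker of these 5 lists that was tested was at 0 in a whole group. Within the endothelial list, Pecam1 (0.65 ± 0.16) and Kdr (0.55 ± 0.15) fell in gastrocnemius alone and Sox17 (1.05 ± 0.25) rose in soleus alone.

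The same change was measured in the thigh, between vastus intermedius and vastus lateralis, in other libraries of the same animals. In an 8-group fit that left out 1 doubted library (labelled vastus intermedius, adult animal B, but near the E18.5 libraries in its profile), 6290 genes were called for the shank change and 5780 for the thigh change of 16402 tested. Of these 3852 were called in both with the same sign, 61.2% of the shank calls and 66.6% of the thigh calls. The difference between shank and thigh was itself called for 283 genes (1.73%), 67 positive and 216 negative in shank less thigh. With all 48 libraries it was called for 81 of 16248 (0.499%), 11 positive and 70 negative.

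Some genes of fast or glycolytic muscle moved more towards gastrocnemius in the shank than towards vastus lateralis in the thigh. They are picked examples, and no count over the fast list is given. Shank less thigh, the difference was -7.50 ± 0.92 for Myh4 (adjusted p = 4.95e-06), -5.70 ± 1.22 for Actn3 (adjusted p = 0.00656), -4.52 ± 0.87 for Mss51 (adjusted p = 0.00255) and -3.08 ± 0.58 for Slc16a3 (adjusted p = 0.00177). The slow gene Tnni1 moved by 4.01 in the shank and 9.96 in the thigh (difference -5.96 ± 1.21, adjusted p = 0.00415), and Ankrd2 by 2.92 and 8.59 (-5.66 ± 0.86, adjusted p = 7.44e-05). These 6 were also called with all 48 libraries. Pvalb, Casr and Mylpf were called without the doubted library (adjusted p = 0.0114, 0.0245 and 0.0426) and not with it (adjusted p = 0.063, 0.0878 and 0.0846).

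For other genes no difference between the regions was called. The shank less thigh value was 0.30 ± 1.11 for Sln, -0.10 ± 0.41 for Cd36, -0.08 ± 0.60 for Prox1 and -0.11 ± 0.56 for Chrne, and for Myh7 it was -6.28 ± 1.91 (adjusted p = 0.0781). These errors leave room for sizeable differences, and a p above the threshold does not show that the regions moved alike.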

How the data were processed

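Messenger RNA libraries of 24 shank muscles, 6 in each of 4 groups, were made from column-purified total RNA with random primers, per the labels' protocols. The deposited values were raw counts per gene, made by the authors with tools that the submitters' processing notes name without their roles, namely STAR 2.7.11, featureCounts (Subread 2.0.6), Trimmomatic 0.39.0, FastQC 0.11.5 and DESeq2 1.44.0, and build mm10. RNA was used at an integrity number above 7.0, per the labels' protocols. Gene identifiers were matched to symbols through the authors' deposited comparison tables (18780) and the RefSeq gene table (6501), and 1898 of 27179 had no symbol.

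Here, the counts were filtered with filterByExpr, which left 15650 genes, scaled by TMM and fitted with edgeR 4.0.16 (quasi-likelihood F test, Benjamini-Hochberg adjustment over all tested genes, threshold 0.05) in R 4.3.3, with the 4 groups in 1 fit. Every adjusted p of the report comes from this fit unless another is named, and ± after a log2 value is its SE. A gene's class follows from the calls of its age change in each muscle. Single values were tested over animals by exact permutation. Alternatives used DESeq2 1.42.0, limma 3.58.1, other scalings and filters, single animals left out, subsets by date and, chosen after seeing the data, E18.5 animals A, B and F, E18.5 animals C, D and E, adult animals B, C, E and F, and 47 libraries of the series.

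The labels name 6 mice per stage and state that the muscles came from the same mice, and date tags of the library columns were taken to tie them. Deviations from the group means correlated weakly between muscles with the same tag (mean r 0.177 for E18.5, 0.083 for adults). The means between different tags (-0.036 and -0.017) follow from these, because deviations cancel out within a group, so they add nothing on the tie. Where a tag has a date of its own, animal and date cannot be told apart. Totals of 19.2 to 31.2 M counts put a limit of 3 counts at 0.096 to 0.156 CPM, for counting error only. No pair of libraries agreed within sampling noise, and the smallest chi-square of a pair was 10.76 times its degrees of freedom. On simulated data for the change of the muscle difference over 15486 genes, 76% of 100 genes changed by 1 log2 unit and 96% of 100 changed by 2 were recovered, with 9 false calls. Only these genes were changed there, as many up as down and none of low level, whereas 41% of genes were called in the data. Recovery and false calls in the data can therefore differ from these.

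The 28 lists (506 entries, 486 tested) and the genes of interest were chosen with earlier results of these data known. Genes were named by rule among called genes with a mean of at least 10 CPM in at least 1 group: the 15 largest in each direction, the 4 largest per class and the 5 largest per list. Others were named for their role after their values were seen. Neither the strand setting nor the gene annotation is given in the sources used here. Results of a few genes that the rule would name are not reported here.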

Additional observations from a re-analysis of the deposited data

Results flagged for a closer look

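In 8 of 166 groups of 6 libraries 1 library lay apart from the rest by Dixon's criterion, and chance alone would give about 8.3, or 1 in 20. Soleus of adult animal C was the highest for Casq2 (571.2 CPM, next 443.5), Ankrd2 (900.5, next 615.5) and Prox1 (70.6, next 47.77). Soleus of adult animal E was the lowest for Myh1 (954.2 CPM, next 3266), and its gastrocnemius the lowest for Tbx15 (359.2, next 475.8). Soleus of adult animal A was the highest for Ppargc1a (1749 CPM, next 421.9). At E18.5, gastrocnemius of animal F was the lowest for Idh2 (274.3 CPM, next 337.1) and Dlk1 (623.3, next 794.8).

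The effect of muscle differed between the stages for 6411 genes by the test of that difference, and in 17 genes it was called in opposite directions. The stage change of the muscle difference itself differed between shank and thigh for 283 genes.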

How the results depend on the processing

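The change of the muscle difference was called for 5776 to 6281 genes with single animals left out, and the adult difference for 7699 to 8502. Total counts without scaling factors gave 6645 genes towards soleus and 1211 towards gastrocnemius, and the sign turned for Gtf2h2 (0.017), Mef2d (0.424), Ndufa5 (0.427), Ndufs4 (0.36), Ndufv1 (0.386), Sdha (0.404), Atp5f1c (0.345), Dld (0.381) and Mcam (0.408), all negative with TMM. With the animals of 1 date per stage, 3 at E18.5 and 2 in adults, 3344 genes were called (1676 and 1668), with 4602 for the adult and 37 for the E18.5 difference, and Stk11ip turned to 0.013; fewer libraries enter that fit. E18.5 animals A, B and F alone gave 2042 genes towards soleus, and without adult animals A and D Pitx1 turned to 1.759. The E18.5 count of 78 became 224 with limma-voom, 211 with DESeq2, 156 with the animal as a block, 21 with all 48 libraries, and 26 to 84 with single animals left out; the cause was not tested. The block gave 6975 calls for the change of the difference and moved no other count of a whole comparison by over 1.5 times. The Myh1 share difference was 3.6 to 6.9 points with single animals left out. Over 388 named genes, 9542 values under alternatives kept their call status, 261 gained the call, 261 lost it and 11 turned sign. In this section a turned sign was counted only where the gene was called in the main fit or the alternative. Values that turned sign with no call in either fit are among the 9542. Genes under about 3 counts a library could not be compared.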
